A study of Mus musculus with 6 samples.

Results

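The genes described here encode antimicrobial proteins that Paneth cells store and secrete at the base of the small intestinal crypt, and Mmp7, a protease that activates some of them. They are Lyz1, Mmp7, Pla2g2a, Ang4, Mptx1, Mptx2, Itln1, Defa17, Defa22 and Defa24, 10 of the 20312 genes in the deposited table of normalised reads, and were taken by their symbols. RNA sequencing had been carried out on 6 libraries of intestine from mice 5 months old, of a strain labelled 129. Apc min/+;Sirt7KO mice (Apc min/+ with a knockout of Sirt7, whose allele the labels do not describe) gave 3 libraries, and Apc min/+ mice, which have Sirt7, gave the other 3. Both groups carry the min allele of Apc, a stop mutation in 1 copy of the gene that restrains Wnt signalling, and mice with it form intestinal adenomas. Sirt7 encodes a nuclear NAD-dependent deacylase, and the comparison asked how its loss changes RNA levels on this background.

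The labels name neither the segment of intestine, nor the tumour content of the tissue, nor the cells in which Sirt7 was deleted, nor whether each library stands for an animal of its own. All p-values here measure the spread between libraries, part or all of which may be technical. Library depth was 24987313 to 29603348 recovered reads. Sirt7 averaged 228 ± 11.1 normalised reads in Apc min/+;Sirt7KO libraries and 2173 ± 64.5 in Apc min/+ libraries (SD, n = 3 each), a log2 fold change of -3.25 ± 0.07 (SE; limma adjusted p = 2.962e-20). Apc had 3781 ± 82.7 normalised reads in Apc min/+;Sirt7KO and 3594 ± 196 in Apc min/+ libraries and did not pass (limma adjusted p = 0.175), except under quantile normalization (log2 fold change 0.23, limma adjusted p = 0.0002126). Of 16600 genes tested, 31.6% were higher and 30.9% were lower at a limma adjusted p under 0.05, so a change of some kind was common in this comparison.

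Paneth cells are long-lived secretory cells that lie between the stem cells of the crypt base. They fill large granules with microbicidal proteins and release them when bacteria or nerve signals are sensed, and their maturation depends on Wnt signalling through TCF/LEF factors. In the mouse, the main granule peptides are the alpha-defensins, or cryptdins, which are stored as inactive precursors and cut to their active form by the protease Mmp7. Lysozyme, a secreted phospholipase, an angiogenin-type ribonuclease and lectin-like proteins are made beside them.

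All of the non-defensin members rose in Apc min/+;Sirt7KO intestine. Over the 10 members, 9 were tested, 8 rose and 0 fell, against a background of 31.6% higher over all tested genes. The median log2 fold change was 0.92 over the 9 tested members and 0.01 over all tested genes. Of these members, 4 rose by more than 2-fold (Pla2g2a, Mmp7, Mptx2 and Mptx1), where 9.77% of all tested genes did. All 9 were above the minimum value of 10 in all 6 libraries, so none entered the test through 1 genotype alone. Together the 10 members took 0.0961%, 0.0837% and 0.0822% of the reads in the Apc min/+;Sirt7KO libraries, against 0.0352%, 0.0327% and 0.0355% in the Apc min/+ libraries. Their normalised reads summed to 20855 to 23932.5 in Apc min/+;Sirt7KO and 9843 to 10625 in Apc min/+ libraries, a smaller gap. Those of all genes summed to 24908995 to 25381988 in Apc min/+;Sirt7KO and 29815648 to 30180827 in Apc min/+ libraries. In bulk intestine, fewer or more cells of a type and less or more RNA per cell cannot be told apart.

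**Figure D1:**
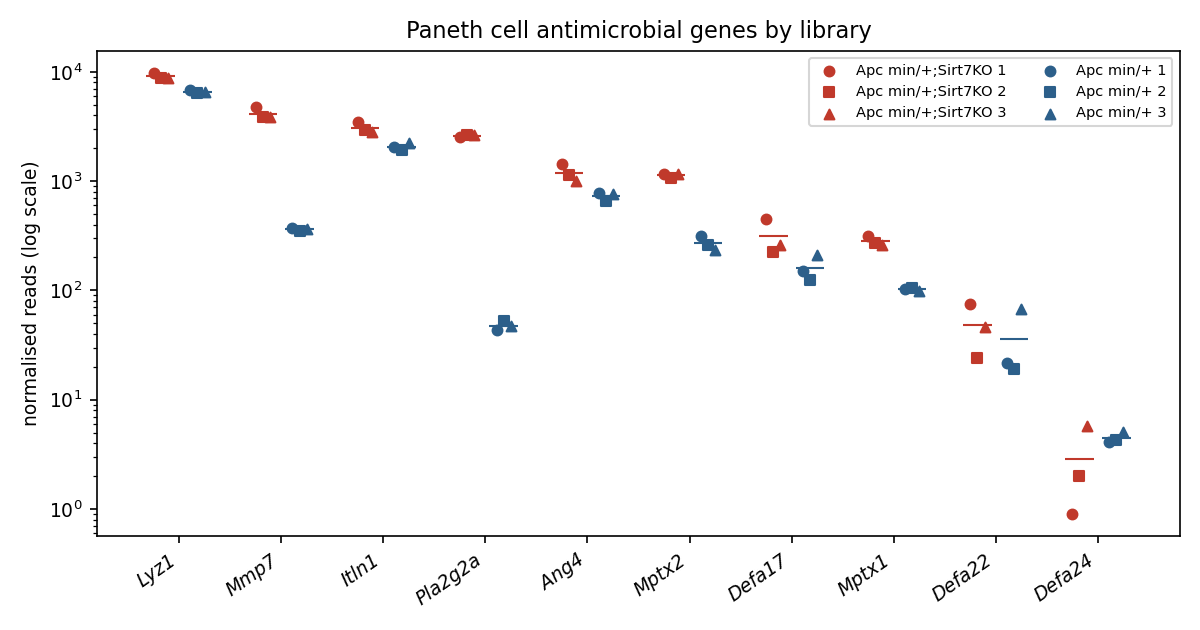
Normalised reads (log scale) of the 10 Paneth cell antimicrobial genes in each library, with Apc min/+;Sirt7KO (red) left of Apc min/+ (blue), marker shapes for the library numbers and short lines for group means. Pla2g2a and Mmp7 show the widest gaps between genotypes, and Defa22 and Defa24 overlap.

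Pla2g2a, a secreted phospholipase that breaks down bacterial membrane lipids, had 2526, 2667 and 2642 normalised reads in Apc min/+;Sirt7KO libraries and 43.4, 52.4 and 47.3 in Apc min/+ libraries. The genotypes lay far apart, and within each genotype the libraries were close. The ratio of means was 54.8, with a log2 fold change of 5.75 ± 0.10 (limma adjusted p = 3.253e-22). The exact two-sided permutation test over the 6 libraries gave p = 0.1, and a lower p cannot be reached with 3 libraries a genotype. For 8 of the 10 members, those that rose, every Apc min/+;Sirt7KO library was above every Apc min/+ library, and each had this p; 33.5% of all tested genes were separated in that way. Pla2g2a lies on chromosome 4 (138831857 to 138835186, plus strand, GRCm38) and is annotated there as a polymorphic pseudogene, since several inbred strains carry a disrupted copy. In mice the gene is also known as a modifier of tumour number in the Apc min/+ intestine. Whether the animals of either genotype carried a working copy was not tested.

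The neighbouring genes of the phospholipase cluster did not move as 1 block. Pla2g2f, another secreted phospholipase gene of the cluster, had 489.9, 487 and 503 normalised reads in Apc min/+;Sirt7KO and 21.7, 31.0 and 27.2 in Apc min/+ libraries (log2 fold change 4.18 ± 0.17, limma adjusted p = 1.174e-15). Pla2g2c had 21.6, 32.3 and 27.7 normalised reads in Apc min/+;Sirt7KO libraries and no read in any Apc min/+ library, at least 26.2-fold higher against a floor of 3 reads over the group. Pla2g2d, which lies between these genes and Pla2g2a, went the other way. It fell, with 130.5 ± 14.7 normalised reads in Apc min/+;Sirt7KO and 329 ± 57.6 in Apc min/+ libraries (log2 fold change -1.32 ± 0.14, limma adjusted p = 2.389e-08). Pla2g5, whose span on the minus strand holds the whole of Pla2g2a, had 291 ± 45.8 in Apc min/+;Sirt7KO and 226 ± 16.2 in Apc min/+ libraries (log2 fold change 0.35 ± 0.12, limma adjusted p = 0.0173). That call was lost under quantile normalization (limma adjusted p = 0.2825) and without the third Apc min/+;Sirt7KO library (0.1456) or the third Apc min/+ library (0.06073). Pla2g2e was under the minimum value and was not tested. The strand setting of the counting is not given in the sources used here, so reads from exons that overlap on opposite strands cannot be told apart.

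Mmp7, the matrilysin that activates alpha-defensin precursors in the mouse, lies on chromosome 9 (7692090 to 7699585, plus strand). It had 4728, 3891 and 3825 normalised reads in Apc min/+;Sirt7KO libraries and 372, 351 and 366 in Apc min/+ libraries. Every Apc min/+;Sirt7KO library was above every Apc min/+ library, and the first was the highest. The ratio of means was 11.4 (log2 fold change 3.51 ± 0.07, limma adjusted p = 1.805e-20). Other matrix metalloproteinase genes rose as well: Mmp13, a collagenase gene, by 2.60 ± 0.11 on the log2 scale (limma adjusted p = 5.298e-15), Mmp3, a stromelysin gene, by 2.32 ± 0.22 (limma adjusted p = 4.347e-09) and Mmp10, its close relative, by 1.70 ± 0.08 (limma adjusted p = 3.071e-14). None of the 50-base stretches of Mmp7 or Pla2g2a transcripts occurred in another annotated gene.

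Lyz1, the lysozyme that Paneth cells secrete to cut bacterial peptidoglycan, and Lyz2, its neighbour made mostly by macrophages and other myeloid cells, moved in opposite directions. Both lie on the minus strand of chromosome 10. Their upstream regions are shown because they are similar although the genes moved apart. The 250 bases before each RefSeq start (GRCm38.p6), at chr10:117292869-117293118 for Lyz1 and chr10:117282273-117282522 for Lyz2, were 79.4% identical when aligned. They read 5′ to 3′ as follows, with no capitals because neither held any of the 4 TCF/LEF core words searched on both strands, which are CTTTG followed by AA, AT, TA or TT.
Lyz1: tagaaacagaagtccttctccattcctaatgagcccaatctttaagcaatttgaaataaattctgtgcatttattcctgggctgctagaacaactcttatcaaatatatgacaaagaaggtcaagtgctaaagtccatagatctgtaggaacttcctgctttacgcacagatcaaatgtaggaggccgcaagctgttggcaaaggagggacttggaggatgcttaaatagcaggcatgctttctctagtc
Lyz2: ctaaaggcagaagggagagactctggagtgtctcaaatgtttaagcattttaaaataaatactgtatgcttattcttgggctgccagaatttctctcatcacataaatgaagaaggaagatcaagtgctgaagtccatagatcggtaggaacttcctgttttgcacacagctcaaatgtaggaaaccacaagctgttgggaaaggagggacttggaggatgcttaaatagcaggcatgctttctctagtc

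Lyz1 had 9784, 8861 and 8845 normalised reads in Apc min/+;Sirt7KO libraries and 6784, 6349 and 6556 in Apc min/+ libraries. The genotypes did not overlap. The ratio of means was 1.40, a modest rise (log2 fold change 0.48 ± 0.04, limma adjusted p = 2.17e-09). Lyz2 averaged 2852 ± 26.4 normalised reads in Apc min/+;Sirt7KO and 5308 ± 138 in Apc min/+ libraries (log2 fold change -0.90 ± 0.04, limma adjusted p = 2.151e-14). The ratio of Lyz1 to Lyz2 normalised reads was 3.47, 3.10 and 3.08 in Apc min/+;Sirt7KO libraries and 1.29, 1.16 and 1.26 in Apc min/+ libraries (exact permutation p = 0.1, two-sided). Their sum hardly differed, at 12015 ± 512 in Apc min/+;Sirt7KO and 11870 ± 140.2 in Apc min/+ libraries. Of the 50-base stretches in Lyz1 transcripts, 16.1% also occur in Lyz2, so part of the reads could have been counted for either gene.

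Markers of the myeloid cells that make Lyz2 went in both directions beside it. Csf1r, the receptor that macrophages need, fell by 0.83 on the log2 scale (limma adjusted p = 8.338e-11), and C1qa, a complement gene of tissue macrophages, fell by 0.69 (limma adjusted p = 1.758e-08). Cd14, a receptor gene for bacterial lipopolysaccharide, rose by 1.09 (limma adjusted p = 4.615e-08), and the macrophage genes Cd68, Mrc1, Cd163 and Cx3cr1 did not pass. Of the neutrophil genes, S100a8, S100a9 and Ly6g rose, and were near 0 in Apc min/+. S100a8 had 45.1 ± 6.60 normalised reads in Apc min/+;Sirt7KO and 0.336 ± 0.581 in Apc min/+ libraries. S100a9 had 114 ± 30.1 in Apc min/+;Sirt7KO and 1.07 ± 1.85 in Apc min/+ libraries. Ly6g had 38 reads over the Apc min/+;Sirt7KO and 3 over the Apc min/+ libraries. Each of these 3 was at 0 in at least 1 Apc min/+ library. All were under the minimum value of 10 in every Apc min/+ library, so they entered the test only through Apc min/+;Sirt7KO. Csf3r, another neutrophil gene, averaged 89.3 ± 10.9 in Apc min/+;Sirt7KO and 73.4 ± 7.17 in Apc min/+ libraries and did not pass (limma adjusted p = 0.223). Of 15 macrophage and neutrophil genes tested, Lyz2 among them, 4 rose and 6 fell, against 31.6% higher and 30.9% lower over all tested genes. Their summed level was 6286 to 6422 in Apc min/+;Sirt7KO and 9763 to 10122 in Apc min/+ libraries, and without Lyz2 it was 3464 to 3563 in Apc min/+;Sirt7KO and 4517 to 4669 in Apc min/+ libraries. The part of these cells in the lysozyme values was not tested.

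**Figure D2:**
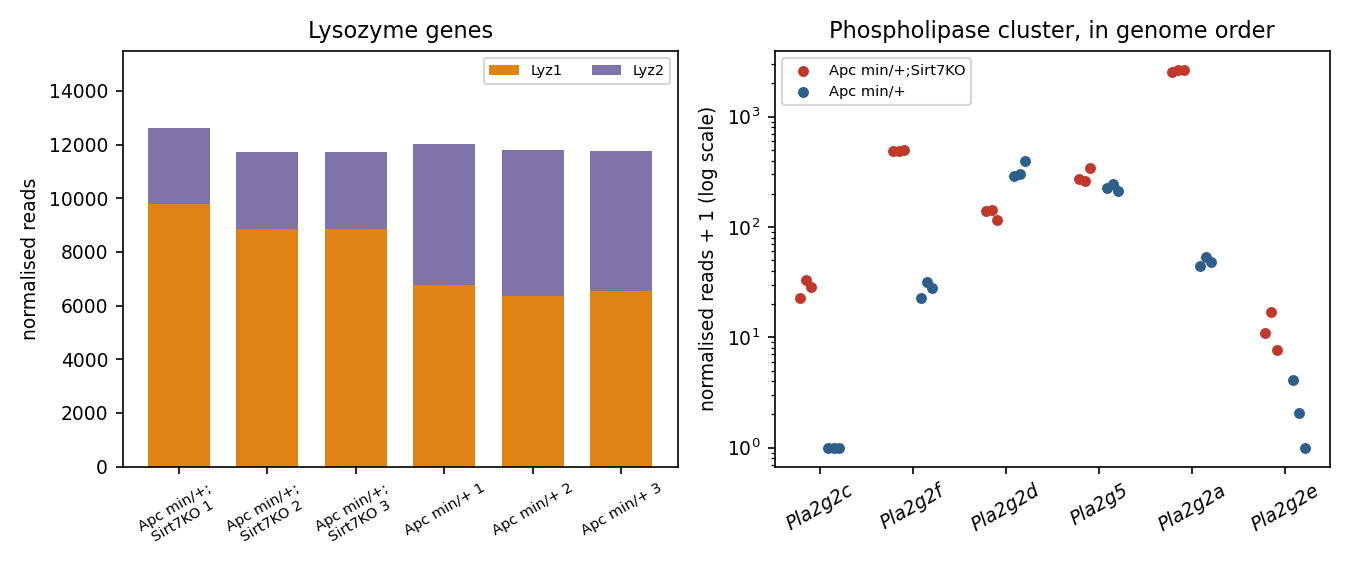
Left, normalised reads of Lyz1 and Lyz2 stacked for each library, Apc min/+;Sirt7KO left of Apc min/+; the stacks reach about the same height, with more Lyz1 and less Lyz2 in Apc min/+;Sirt7KO. Right, normalised reads + 1 (log scale) of the phospholipase cluster genes in each library, Apc min/+;Sirt7KO in red and Apc min/+ in blue, where Pla2g2a, Pla2g2f and Pla2g2c are higher and Pla2g2d is lower in Apc min/+;Sirt7KO.

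The mucosal pentraxins Mptx1 and Mptx2 are secreted proteins of the family of C-reactive protein, which bind microbial surfaces. They lie on chromosome 1 in opposite orientation. Their upstream regions are shown because both genes rose while the searched words stood before 1 of them. The 250 bases before the RefSeq starts, chr1:174330268-174330517 on the plus strand for Mptx1 and chr1:173277757-173278006 on the minus strand for Mptx2 (GRCm38.p6), were 72.8% identical when aligned. Capitals mark the TCF/LEF core words CTTTGAA (208 bases before the start) and CTTTGTT (75 bases before it), which were found for Mptx1 and not for Mptx2.
Mptx1: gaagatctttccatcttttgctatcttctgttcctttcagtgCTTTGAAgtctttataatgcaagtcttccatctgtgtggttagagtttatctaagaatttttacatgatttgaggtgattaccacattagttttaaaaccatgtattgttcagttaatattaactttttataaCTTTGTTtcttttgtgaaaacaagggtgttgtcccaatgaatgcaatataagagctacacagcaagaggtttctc
Mptx2: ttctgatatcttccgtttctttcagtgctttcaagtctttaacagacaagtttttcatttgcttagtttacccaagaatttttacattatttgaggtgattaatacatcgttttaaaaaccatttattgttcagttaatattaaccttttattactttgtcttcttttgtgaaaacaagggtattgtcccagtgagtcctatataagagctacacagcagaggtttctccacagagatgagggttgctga

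At least 1 of the 4 words stood in 14.8% of the 32851 mouse promoters of the same length, and at least 2, as for Mptx1, in 1.43%. The matches are a description only. Mptx2 had 1155, 1078 and 1171 normalised reads in Apc min/+;Sirt7KO libraries and 317, 263 and 236 in Apc min/+ libraries (log2 fold change 2.07 ± 0.09, limma adjusted p = 1.477e-14). Mptx1 had 313, 274 and 261 in Apc min/+;Sirt7KO libraries and 103, 106 and 98.7 in Apc min/+ libraries (log2 fold change 1.45 ± 0.14, limma adjusted p = 2.935e-09). Both pentraxin genes were higher in every Apc min/+;Sirt7KO library. The ratio of Mptx2 to Mptx1 was 4.03 ± 0.41 in Apc min/+;Sirt7KO and 2.65 ± 0.37 in Apc min/+ libraries, without overlap (exact permutation p = 0.1, two-sided). The genes share 17.9% of the 50-base stretches of Mptx1 transcripts.

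Ang4, an angiogenin-family ribonuclease with bactericidal activity in the mouse, lies on chromosome 14 (51763878 to 51773590, minus strand). It had 1426, 1144 and 1005 normalised reads in Apc min/+;Sirt7KO libraries and 772, 659 and 764 in Apc min/+ libraries. Its groups did not overlap, although the Apc min/+;Sirt7KO libraries were spread more widely than the Apc min/+ ones. The log2 fold change was 0.69 ± 0.11 (limma adjusted p = 6.763e-05). Of its neighbours in the ribonuclease family, Rnase4 rose by 0.55 ± 0.08 on the log2 scale (limma adjusted p = 2.295e-06). Ang, the founding angiogenin gene, averaged 154 ± 18.4 in Apc min/+;Sirt7KO and 125 ± 5.77 in Apc min/+ libraries and did not pass (limma adjusted p = 0.09316).

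Itln1, or intelectin, is a lectin that binds sugars of microbial surfaces and is made by goblet cells as well as Paneth cells. It lies on chromosome 1 (171518122 to 171535294, minus strand). Itln1 had 3476, 2918 and 2790.0 normalised reads in Apc min/+;Sirt7KO libraries and 2059, 1915 and 2230 in Apc min/+ libraries. All 3 Apc min/+;Sirt7KO values exceeded the Apc min/+ values (log2 fold change 0.56 ± 0.07, limma adjusted p = 5.762e-06). Goblet cell genes went in both directions beside it. Of 16 tested, 9 rose and 6 fell, with a median of 0.55, against 31.6% higher and 30.9% lower over all tested genes. Their summed level was 281896 to 291723 in Apc min/+;Sirt7KO and 374567 to 388181 in Apc min/+ libraries. Muc13 carried most of that gap, since without it the sum was 215721 to 222602 in Apc min/+;Sirt7KO and 225700 to 227991 in Apc min/+ libraries. The gel-forming mucin Muc2 rose by 0.67 (limma adjusted p = 2.928e-13), Galnt12, which starts the sugar chains of mucins, rose by 1.65 (limma adjusted p = 2.865e-14), and the membrane mucin Muc13 fell by 1.21 (limma adjusted p = 2.853e-15). Of the same list, named after their values were seen, Zg16, Tff3, Clca1 and Fcgbp fell by 0.61, 0.42, 0.39 and 0.13 (each at a limma adjusted p of 0.005391 or less). Spink4, named in the same way, rose by 1.58 (limma adjusted p = 1.822e-12). The part of goblet cells in the Itln1 value was not tested.

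The alpha-defensins are small, pore-forming peptides that mouse Paneth cells make from many near-identical genes. The deposited table held 21 rows in their cluster on chromosome 8 (21025545 to 21735471), of which Defa17, Defa22 and Defa24 are the members described here. The regions upstream of Defa22 and of Defa2 are shown because they are almost the same although the levels of the genes are not. These 250 bases, at chr8:21162027-21162276 for Defa22 and chr8:21378267-21378516 for Defa2 (plus strand, RefSeq, GRCm38.p6), differed at 5 positions. Capitals mark CTTTGAT on the minus strand, written as its reverse complement, 112 and 72 bases before each start.
Defa22: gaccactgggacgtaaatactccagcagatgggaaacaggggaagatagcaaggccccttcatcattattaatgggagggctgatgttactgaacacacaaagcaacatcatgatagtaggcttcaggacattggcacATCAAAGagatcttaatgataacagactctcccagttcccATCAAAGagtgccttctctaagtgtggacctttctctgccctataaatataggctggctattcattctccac
Defa2: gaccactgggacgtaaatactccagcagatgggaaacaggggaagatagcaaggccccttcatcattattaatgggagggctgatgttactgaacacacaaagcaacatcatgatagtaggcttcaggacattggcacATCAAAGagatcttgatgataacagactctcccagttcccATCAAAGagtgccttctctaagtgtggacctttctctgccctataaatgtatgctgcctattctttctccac

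The 250 bases upstream of Defa21 were identical to those of Defa22, and those of Defa20 to those of Defa2. Each of the 4 also held TATAAA 31 bases before the start, a word found on the gene strand in 7.59% of promoters. At least 2 copies of CTTTGAT stood in 27 of 32851 promoters (0.0822%), and 9 of these 27 belong to alpha-defensin genes, out of 16 genes named Defa in the table. This counts only the word that these promoters held, and at least 2 of any of the searched words stood in 1.43% of promoters. The regions of Defa21, Defa22, Defa2 and Defa20 are near copies, so the 9 are not independent of each other. The promoter table held 7 of the 10 members. The promoters of Lyz1, Mmp7, Ang4, Mptx2 and Itln1 held none of the 4 words, which says only that these letters are absent from this window.

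Defa17 had 448, 225 and 262 normalised reads in Apc min/+;Sirt7KO libraries and 149.7, 124 and 210.5 in Apc min/+ libraries. The first Apc min/+;Sirt7KO library was high, and the second lay just above the third Apc min/+ library. The log2 fold change was 0.92 ± 0.28 (limma adjusted p = 0.02096). The call was lost without the first Apc min/+ library (limma adjusted p = 0.1356) and without the second (limma adjusted p = 0.06137). Defa3 carries 92.0% of the 50-base stretches of Defa17, and reads of the pair summed to 2851 ± 427 in Apc min/+;Sirt7KO and 2989 ± 160.3 in Apc min/+ libraries (log2 fold change -0.077, limma adjusted p = 0.4741). The separate value of Defa17 is therefore uncertain.

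Defa22 had 74.7, 24.2 and 46.7 normalised reads in Apc min/+;Sirt7KO libraries and 21.7, 19.2 and 67.5 in Apc min/+ libraries. The groups overlapped, with the third Apc min/+ library above 2 of the 3 Apc min/+;Sirt7KO libraries. The log2 fold change of 0.51 ± 0.48 did not pass (limma adjusted p = 0.3709, exact permutation p = 0.5), but passed without the third Apc min/+ library (1.07, limma adjusted p = 0.0243). Defa21 carries 72.7% of its 50-base stretches. The pair summed to 510.5 ± 111 in Apc min/+;Sirt7KO and 904 ± 65.5 in Apc min/+ libraries, a fall (log2 fold change -0.84, limma adjusted p = 1.573e-05), with most of the reads on Defa21. With each such group of near copies summed, a setting added after the data were seen, 7 members rose and 1 fell.

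Defa24 was barely detected, with 0.90, 2.02 and 5.72 normalised reads in Apc min/+;Sirt7KO libraries and 4.13, 4.27 and 5.04 in Apc min/+ libraries. These rest on 9 reads in Apc min/+;Sirt7KO (exact Poisson 95% interval 4.12 to 17.1) and 13 in Apc min/+ (6.92 to 22.2), and the intervals cover counting error only. Defa24 fell below the minimum value and was not tested. With no filter its log2 fold change was -0.69 (limma adjusted p = 0.4025), and a difference was not detectable at this depth.

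Across the cluster, rows were called in both directions. Of 18 rows tested, 5 rose, 8 fell and 5 did not pass, with a median log2 fold change of -0.25. Over all tested genes, 31.6% were higher and 30.9% were lower. The 5 that rose are not separate results. Defa2, Defa20 and Gm21002 are near copies of each other, and Defa17 and Gm15315 did not rise with their near copies summed. The rows named Gm or AY in the table were chosen after their values were seen. Defa2 rose, with 1048, 877 and 729 normalised reads in Apc min/+;Sirt7KO and 521, 446 and 482 in Apc min/+ libraries (log2 fold change 0.86 ± 0.10, limma adjusted p = 9.289e-07). Defa21, whose upstream region differs from that of Defa2 at the same 5 positions as Defa22, fell to 564, 423 and 399.7 in Apc min/+;Sirt7KO, against 859.95, 834 and 910.5 in Apc min/+ libraries (-0.92 ± 0.10, limma adjusted p = 1.457e-07). The ratio of Defa2 to Defa21 was 1.92 ± 0.14 in Apc min/+;Sirt7KO and 0.557 ± 0.043 in Apc min/+ libraries, with no overlap. All 50-base stretches of Defa2 also occur in other annotated genes, so its separate value is uncertain, and Defa2 summed with its near copies Defa20, Gm21002 and Gm15308 had 1047 ± 216 in Apc min/+;Sirt7KO and 527 ± 69.1 in Apc min/+ libraries.

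The abundant row AY761184 fell to 657 ± 65.3 normalised reads in Apc min/+;Sirt7KO, against 2542 ± 176 in Apc min/+ libraries (log2 fold change -1.95 ± 0.07, limma adjusted p = 3.018e-16). Gm14851, named Defa38 in RefSeq, fell by 1.46 (limma adjusted p = 3.994e-14). Defa26, Gm15292 (Defa40) and Gm10104 (Defa35) fell by 1.32, 1.29 and 0.79, and Gm15284 (Defa30) by 0.51, each at a limma adjusted p of 0.0008636 or less. Defa3 had the smallest of the falls, -0.16 ± 0.07 (limma adjusted p = 0.04381), with overlapping groups. Its call was lost under both scalings (TMM 0.07236, quantile 0.5115), in both count models, with near copies summed and without Apc min/+;Sirt7KO library 2 or 3 or Apc min/+ library 1 or 3 (limma adjusted p from 0.1346 to 0.2022). Among the low rows, Gm21002 (Defa33) and Gm15315 (Defa34) rose by 2.56 and 0.96 (limma adjusted p = 0.005771 and 0.00527), and Defa20 passed at 2.27 ± 0.72 (limma adjusted p = 0.02738) although its groups overlapped. These calls are uncertain. Gm15315 stood at -0.18 with its near copies summed (limma adjusted p = 0.2025), Gm21002 lost its call with DESeq2 values (adjusted p = 0.09855) and without the first Apc min/+ library (limma adjusted p = 0.1028), and Defa20 lost its call in both count models and without the first or the second Apc min/+ library. Among the rows that did not pass were Defa5 (-0.49), Gm15293 (Defa41, -0.34) and Gm15308 (Defa32, 3.27). Each of these passed under some settings, Gm15308 for example without the third Apc min/+ library (limma adjusted p = 6.303e-07), Defa5 without the first Apc min/+;Sirt7KO library (-0.71, limma adjusted p = 0.009378) and Gm15293 under quantile normalization (-0.53, limma adjusted p = 0.003936). The count of 5 rows that rose was 2 without the first Apc min/+ library and 3 without the second.

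**Figure D3:**
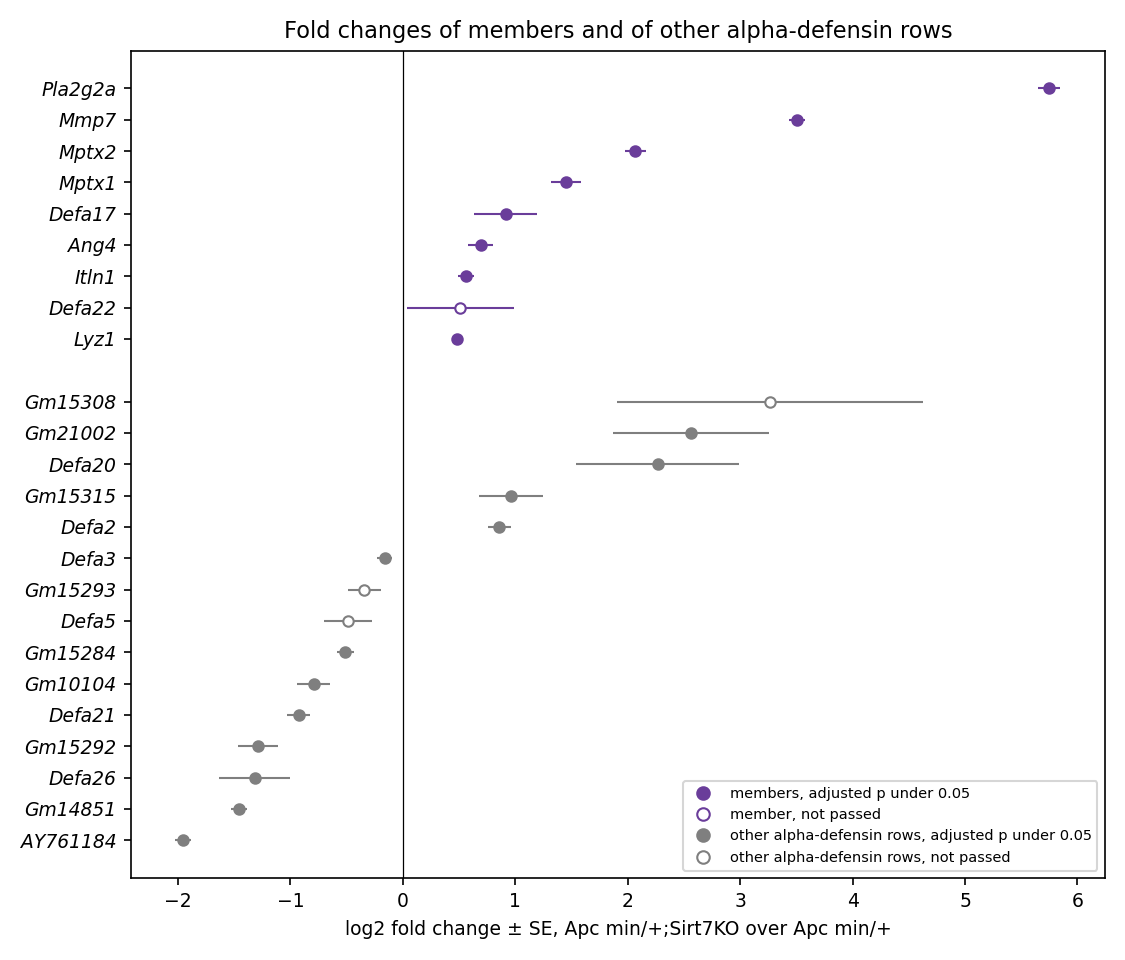
Log2 fold change of Apc min/+;Sirt7KO over Apc min/+ with its SE (limma) for the 9 tested members (purple, above) and 15 other tested alpha-defensin rows (grey, below), filled where the adjusted p was under 0.05. The members lie right of 0, and the alpha-defensin rows run between -1.95 for AY761184 and 3.27 for Gm15308.

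Summed over its 21 rows, the cluster had 10554, 8454 and 8235 normalised reads in Apc min/+;Sirt7KO libraries and 13755, 12453 and 13289.6 in Apc min/+ libraries. Every Apc min/+;Sirt7KO sum was below every Apc min/+ sum, and the ratio of means was 0.690. The makeup of the sum differed too. AY761184 gave 7.26% of it in Apc min/+;Sirt7KO and 19.3% in Apc min/+ libraries (means of 3), Defa2 gave 9.72% in Apc min/+;Sirt7KO and 3.67% in Apc min/+ libraries, and Gm15284, the abundant row named Defa30 in RefSeq, gave 26.8% in Apc min/+;Sirt7KO and 26.2% in Apc min/+ libraries. The members Defa17, Defa22 and Defa24 together gave 4.97%, 2.97% and 3.82% in Apc min/+;Sirt7KO and 1.28%, 1.18% and 2.13% in Apc min/+ libraries. They were thus a small share of the alpha-defensin signal, and of the 3 only Defa17 passed the test by itself.

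**Figure D4:**
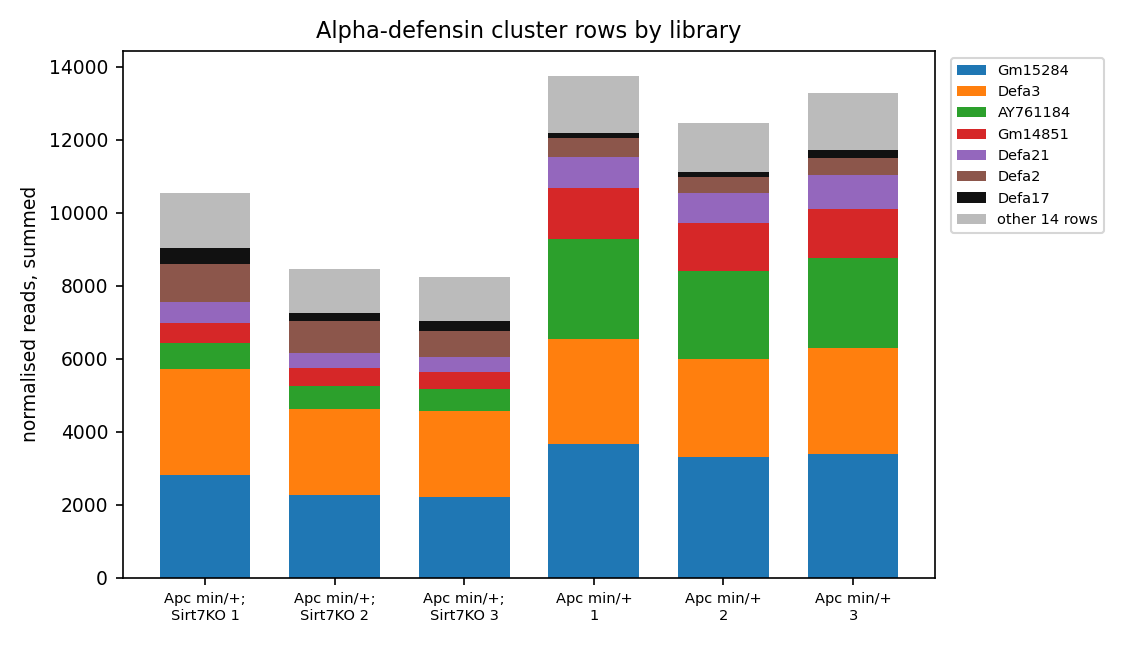
Normalised reads of the alpha-defensin cluster rows on chromosome 8, stacked for each library, Apc min/+;Sirt7KO left of Apc min/+, with the 7 named rows in colour and the other 14 rows in grey. The stacks are 8235 to 10554 high in Apc min/+;Sirt7KO and 12453 to 13755 in Apc min/+, and AY761184 is the layer that differs most.

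Per kilobase of exon, Lyz1 stood highest of the 10 members in both genotypes, at 7255 ± 426 normalised reads in Apc min/+;Sirt7KO and 5196 ± 172 in Apc min/+ libraries. In Apc min/+;Sirt7KO it was followed by Mmp7 (3884 ± 471), Pla2g2a (2814 ± 81.2), Itln1 (2683 ± 319.6), Ang4 (1681 ± 303), Mptx2 (1429 ± 62.9), Defa17 (786 ± 302), Mptx1 (354 ± 33.9), Defa22 (116 ± 60.4) and Defa24 (6.87 ± 6.03). In that order Pla2g2a and Itln1, and Ang4 and Mptx2, lay within 1 SD of each other. In Apc min/+ libraries the order was Lyz1, Itln1 (1812 ± 138), Ang4 (1032 ± 88.9), Defa17 (407 ± 112), Mptx2 (342 ± 52.1), Mmp7 (339.5 ± 10.2), Mptx1 (128 ± 4.50), Defa22 (86.2 ± 64.9), Pla2g2a (51.4 ± 4.86) and Defa24 (10.7 ± 1.16). There Defa17, Mptx2 and Mmp7 lay within about 1 SD of each other, and Defa22, with its wide spread, lay within 1 SD of both Mptx1 and Pla2g2a. Mmp7 relative to Lyz1, as a ratio of normalised reads, was 0.452 ± 0.03 in Apc min/+;Sirt7KO and 0.0553 ± 0.00049 in Apc min/+ libraries.

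The first Apc min/+;Sirt7KO library held the highest value of its genotype for 7 of the 9 tested members (77.8%) and for 16 of the 18 tested alpha-defensin rows (88.9%), against 33.4% of all tested genes. Without it, 8 members still rose. Over the 6 libraries, which fall into 2 genotypes, the 5 genes whose log2 levels ran most nearly parallel to Lyz1 were Fubp1 (Pearson r 0.998), Col16a1, Yap1, Dcn and Sumo2, given as a description. Among the members, the same measure was 0.987 for Mptx1, 0.985 for Mmp7, 0.978 for Mptx2, 0.973 for Itln1, 0.969 for Pla2g2a and Ang4, 0.865 for Defa17 and 0.424 for Defa22. Many genes outside the members ran closer to Lyz1. Of 13379 genes compared, Mptx1 ranked 168, Mmp7 232, Mptx2 570, Itln1 817, Pla2g2a 1005, Ang4 1025 and Defa17 3705. Defa22, with a mean under 50, was not ranked.

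Genes that mark or build Paneth cells outside the antimicrobial set went in both directions. Of 31 tested, 14 rose and 8 fell, against 31.6% higher and 30.9% lower over all tested genes. The median log2 fold change was 0.15, against 0.01 over all tested genes. The alpha-defensin row Gm15284 is among the 31. Habp2, a protease gene known from Paneth cell profiles, had 2323 ± 56.0 normalised reads in Apc min/+;Sirt7KO and 22.7 ± 4.35 in Apc min/+ libraries (log2 fold change 6.63 ± 0.13, limma adjusted p = 4.377e-21). Ephb2, a receptor that places cells in the crypt, and Cd24a, a surface marker of Paneth cells, rose by 1.77 and 1.42, and Agr2, a disulfide isomerase gene of secretory cells that is also on the goblet cell list, by 2.08. Other genes of the list, named after their values were seen, fell. Lrrk2 fell by 1.64 (limma adjusted p = 1.268e-10), Guca2b by 1.49 (limma adjusted p = 3.757e-16) and Bst1 by 0.94 (limma adjusted p = 3.63e-15). The niche signals of Paneth cells did not share a direction, in genes chosen after their values were seen. Wnt3, their Wnt ligand, had 29.0 ± 8.26 in Apc min/+;Sirt7KO and 9.64 ± 4.25 in Apc min/+ libraries (limma adjusted p = 0.003357), while the Notch ligand gene Dll4 fell by 0.94 (limma adjusted p = 8.651e-07) and the growth factor gene Egf did not pass (-0.60 ± 0.61, limma adjusted p = 0.4102).

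Of 15 transcription factor genes of secretory and Paneth cell fate, 9 rose and 6 fell (median 0.47). The shares over all tested genes were 31.6% higher and 30.9% lower. Sox9, which Paneth cells need in order to form, had 2091, 1763 and 1789 normalised reads in Apc min/+;Sirt7KO libraries and 198, 209 and 226 in Apc min/+ libraries (log2 fold change 3.15 ± 0.08, limma adjusted p = 7.155e-19). Creb3l1 and Creb3l4, secretory-pathway transcription factor genes, rose by 2.56 and 2.41, and the forkhead factor gene Foxa1 by 2.48. Among factors named after their values were seen, Spdef, which matures goblet and Paneth cells, had 996 ± 85.9 normalised reads in Apc min/+;Sirt7KO and 255 ± 72.1 in Apc min/+ libraries (limma adjusted p = 6.96e-07), and Atoh1, which starts the secretory lineage, rose by 0.47 (limma adjusted p = 0.003216), a call lost under quantile normalization (0.28, limma adjusted p = 0.06556). Gfi1, which acts after Atoh1, fell by 0.86 (limma adjusted p = 0.0007752) and Bhlha15, a factor of granule architecture, by 0.66 (limma adjusted p = 0.0009394). Tcf7l2, a TCF/LEF factor gene also named after its values were seen, fell by 0.55 (limma adjusted p = 6.03e-09). Xbp1, the unfolded protein response factor that Paneth cells depend on, fell by 0.26 (limma adjusted p = 8.062e-06), but stood at 0.0028 under quantile normalization (limma adjusted p = 0.9585).

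Antimicrobial genes of the gut outside the Paneth granule set were split as well. Here 16 of 27 rose and 9 fell (median 0.58), against 31.6% higher and 30.9% lower over all tested genes. Reg4, a secreted lectin-like gene of enteroendocrine and goblet cells, rose by 3.30 (limma adjusted p = 7.26e-23), Ltf, the iron-binding lactoferrin gene, by 3.21 (limma adjusted p = 5.41e-18), and Pglyrp1, which encodes a peptidoglycan-binding protein, by 2.11 (limma adjusted p = 9.535e-18). Reg3g, the lectin gene against Gram-positive bacteria, fell by 1.64 (limma adjusted p = 1.812e-17), and its more abundant relative Reg3b, named after its values were seen, fell by 1.30 (limma adjusted p = 3.371e-11). Reads shared within the Reg3 family were not examined.

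Markers of other cells and tissues moved in the same libraries. Crypt and Wnt target genes, which include stem cell markers such as Lgr5 (log2 fold change 4.33) and the Wnt inhibitor gene Notum (7.09), rose in 17 of 20 tested cases with 1 lower, with summed levels of 33908 to 36488 in Apc min/+;Sirt7KO and 10275 to 10689 in Apc min/+ libraries. Absorptive enterocyte genes fell in 19 of 20 cases, with sums of 1030274 to 1056558 in Apc min/+;Sirt7KO and 2047994 to 2076290 in Apc min/+ libraries. Gastric genes rose in all 10 tested cases, with sums of 22087 to 23591 in Apc min/+;Sirt7KO and 33.2 to 43.4 in Apc min/+ libraries, and 14 of 15 pancreatic acinar genes rose, with sums of 3993 to 4986 in Apc min/+;Sirt7KO and 372 to 404 in Apc min/+ libraries. The gastric lipase gene Lipf was at 0 in all 3 Apc min/+ libraries. Most of the tested genes on the gastric and pancreatic acinar lists were under the minimum value of 10 in every Apc min/+ library. Those genes entered the test only through Apc min/+;Sirt7KO, so only a rise could be called, and these counts are a description. The gastric genes Gif and Atp4b were under the minimum value and were not tested. Enteroendocrine genes fell in 11 of 18 cases with 0 higher, and tuft cell genes rose in 3 and fell in 6 of 13. Beside all these lists, 31.6% of all tested genes were higher and 30.9% lower. The part of these tissues and cells in the values of the Paneth members was not tested.

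**Figure D5:**
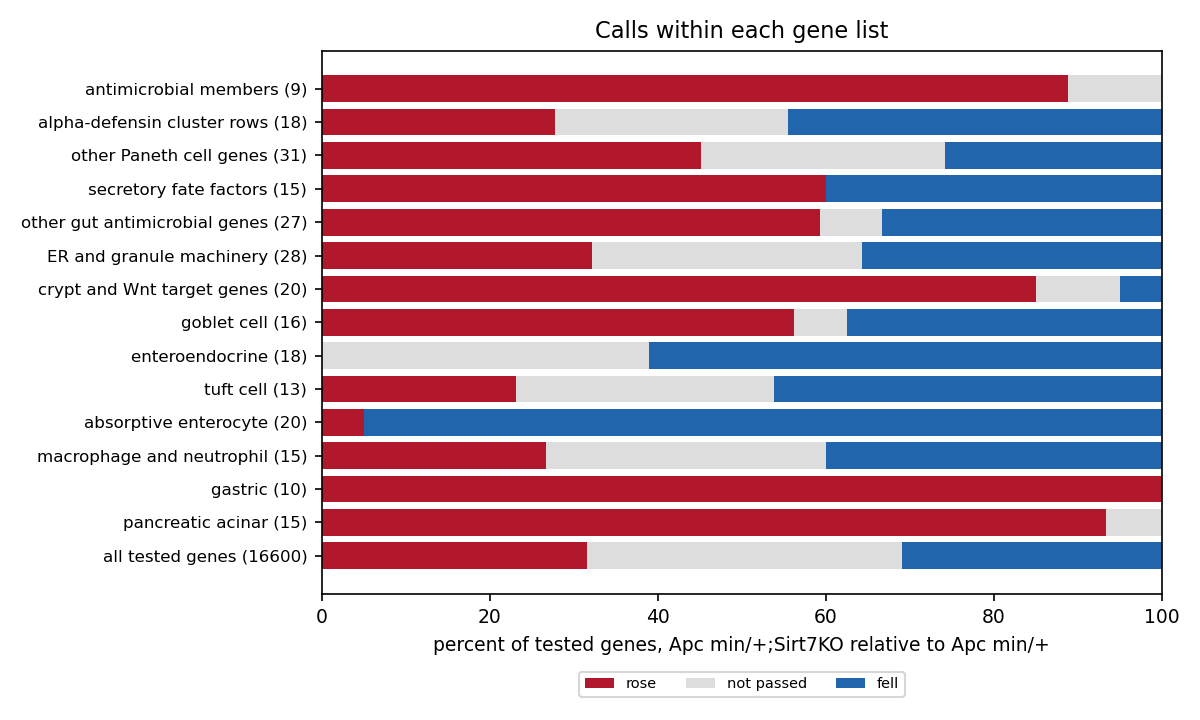
Percent of tested genes in each list that rose (red), did not pass (grey) or fell (blue) in Apc min/+;Sirt7KO relative to Apc min/+, with the number tested in brackets and all tested genes at the bottom. The 9 tested antimicrobial members hold 8 that rose and 0 that fell, while the alpha-defensin cluster rows hold 5 and 8. Most gastric and pancreatic acinar genes entered the test only through Apc min/+;Sirt7KO, so only a rise could be called for them.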

How the data were processed

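RNA from intestine was extracted with Trizol and made into libraries with an Illumina TruSeq RNA kit, per the labels' protocols. Per the submitters' processing notes, FastQC, TopHat, TopHat2 2.1.1, HTSeq 0.6.1p1, DESeq2 and the mm10 build were used, without roles or settings. The deposited signal per gene and library was made by the authors from the number of reads of a gene, divided by a size factor of that library, and was not scaled by length. Per the file headers, the same table held the authors' log2 fold changes with their SE, a Wald statistic (a score) and p-values. In all 6 columns, 100% of values were whole multiples of 1 step within 0.01, which gave recovered reads. The count test was run on those as an alternative.

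Genes that reached 10 in 3 or more of the 6 libraries were tested with limma 3.58.1 (R 4.3.3; trend and robust estimation) on log2(value + 1), with Benjamini-Hochberg adjustment over 16600 genes and a threshold of 0.05. This scale understates changes of low genes. The limma step was also tested on simulated data. The 10 members and all gene lists were chosen with earlier results of these data known. Named genes were Sirt7, Apc, the members, other Defa rows, near relatives, up to 4 genes of each list by smallest p, and the 5 genes most like Lyz1. Others are said to be chosen after their values were seen, and so were Lipf, Cd14, the macrophage genes that did not pass and the neutrophil genes. Of the alpha-defensin cluster, 1 tested row enters the counts and sums but is not reported here by itself. Positions and exon lengths come from GENCODE for GRCm38. Shared sequence was counted as 50-base stretches of transcripts found in another gene, and rows sharing at least 50% were summed as near copies. Upstream sequences come from RefSeq and were aligned with Biopython 1.88. Alternatives were a replicate block, TMM scaling, quantile normalization, pseudocounts of 0.5 and 10, no filter or a filter at 50, limma without robust estimation, edgeR 4.0.16 and DESeq2 1.42.0 on recovered reads, and leaving out each library.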

Additional observations from a re-analysis of the deposited data

How the results depend on the processing

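The count of members that rose was 8, and of those that fell 0, under the block, both scalings, both pseudocounts, both filters, the fit without robust estimation and both count models. Leaving out 1 library gave 7 to 9 that rose and 0 that fell. With near copies summed, which was added after the data were seen, 1 member fell: Defa22 stood at -0.84 and Defa17 at -0.077, and Gm15315 outside the members at -0.18. Over the 16 other settings without that sum the log2 fold change was 0.43 to 0.73 for Lyz1, 3.41 to 3.56 for Mmp7, 5.51 to 5.82 for Pla2g2a, 0.55 to 0.81 for Ang4, 1.26 to 1.51 for Mptx1, 1.96 to 2.18 for Mptx2 and 0.47 to 0.66 for Itln1, each past the threshold in all of them. Defa17 ranged from 0.62 to 1.12 and passed in 14. In the authors' deposited table the log2 fold change was 0.80 ± 0.32 (SE) for Defa17 (adjusted p = 0.02689), 0.25 for Defa22 (0.6711) and -0.25 for Defa24 (0.6721).

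Of the list counts, the alpha-defensin rows that rose were 3 with the filter at 50 and 3 with DESeq2 values, and 2 to 5 when 1 library was left out. Under quantile normalization 15 genes of protein folding and secretion rose (9 in the main setting), 3 enterocyte genes rose and 1 tuft cell gene rose. With the filter at 50, 2 macrophage and neutrophil genes rose. Enteroendocrine genes that rose were 1 under TMM scaling, 1 with the pseudocount of 10 and 1 with edgeR, and 0 to 2 when 1 library was left out. Leaving out 1 library gave 1 to 3 tuft cell genes that rose and 0 to 1 crypt genes that fell. The sign turned for Xbp1 under quantile normalization (0.0028) and Egf without the third Apc min/+;Sirt7KO library (0.081, with a range from -1.14 over left-out libraries); the cause was not tested. The labels give no pairing of libraries by replicate number. Libraries of the same number showed no shared deviation (correlation of deviations 0.0003, 0.036 and -0.0063 for numbers 1, 2 and 3), which cannot show that they were unpaired. With the number as a block 8 members rose, 5251 genes were higher and 5151 lower. Depth limits Defa24 most, with 1 to 6 reads per library.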

Other observations

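The folding and secretion machinery that loads Paneth granules went in both directions. Of 28 genes tested, 9 rose and 10 fell, with a median log2 fold change of -0.03. Over all tested genes, 31.6% were higher and 30.9% lower, so these counts do not set the list apart. Under quantile normalization 15 of its genes rose. Cftr, the chloride channel gene of crypt and Paneth cells, rose by 1.29 (limma adjusted p = 3.998e-17), Rab3d, a small GTPase gene of secretory granules, by 1.46 (limma adjusted p = 5.231e-14), and Pdia6, a disulfide isomerase gene, by 0.60 (limma adjusted p = 3.444e-11). Kdelr2, whose product returns escaped chaperones to the endoplasmic reticulum, fell by 0.44 (limma adjusted p = 5.376e-09).

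The low rows Defa17, Defa20, Defa22, Gm21002 and Gm15308 each had their highest Apc min/+;Sirt7KO value in the first library and their highest Apc min/+ value in the third. Within the Defa2 group of near copies, Gm15308 had 67.5, 26.2 and 32.4 normalised reads in Apc min/+;Sirt7KO and 1.03, 0 and 33.2 in Apc min/+ libraries, and Gm21002 had 67.5, 28.2 and 36.2 in Apc min/+;Sirt7KO and 3.10, 2.14 and 27.2 in Apc min/+ libraries. All of the 50-base stretches of both rows also occur in other annotated genes.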
